A study of Mus musculus with 3 samples.

Results

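Classical inflammatory monocytes of the mouse lung are described here, as 139 of 6458 cells kept from 3 single-cell RNA libraries. The members were chosen by measured UMI counts (UMIs are unique molecular identifiers, each standing for 1 captured RNA molecule). A cell was taken as one of them when its UMIs for Ly6c2, Ccr2, F13a1 and Vcan summed to at least 3 and it held at least 10 UMIs of Lyz2. It also had to lack other identities: under 3 UMIs summed over the non-classical monocyte genes Adgre4, Treml4, Ace, Eno3, Cd300e and Cd300ld, under 8 over the macrophage genes C1qa, C1qb and C1qc, under 4 over the neutrophil genes Retnlg, Csf3r, Cxcr2, Il1r2 and Mmp9, under 3 over the dendritic cell genes Cd209a, Mgl2 and Ccl17, and 0 of Cd3e, Cd79a and Ncr1. Barcodes were kept from 200 genes upwards if no more than 10% of their UMIs were mitochondrial. The genes of the rule, and every difference between these cells and the rest that follows from it, are given as a description only.

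The libraries were 1 per group: lung of non-irradiated control mice, lung of mice irradiated over the thorax in conventional mode (CONV), and lung of mice irradiated with FLASH, a mode that gives the dose at an ultra-high dose rate. All groups were C57BL/6 females aged 10 to 12 weeks, and the irradiated ones received 17 Gy of electrons at 4.5 MeV under isoflurane. Lungs were digested with enzymes, filtered and freed of red cells by lysis, so the cells are those that came through dissociation, and cells in the vessels and in the tissue were not separated. How many mice went into a library, and how long after irradiation the lungs were taken, is not given in the sources used here. Each group has a single library and no replicates, so mode of irradiation, animal and library cannot be told apart. No test was run; the ranges in brackets are 95% intervals that cover counting error only.

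Classical monocytes leave the bone marrow along a gradient sensed by the chemokine receptor CCR2 and carry the surface protein Ly6C. In the circulation some of them turn into non-classical, patrolling monocytes under the factor NR4A1. In injured lung they enter the tissue, make cytokines and coagulation factor XIII (F13a1), and can become interstitial or alveolar macrophages. The transcription factors PU.1 (Spi1), IRF8, KLF4 and members of the C/EBP family shape their differentiation.

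The rule found 21 cells (control), 56 (CONV) and 62 (FLASH). Together they held 106333, 175215 and 142332 UMIs, with medians per cell of 3941, 2766 and 2182.5. The FLASH members were the shallowest, and a rule on raw UMIs asks more of a shallow cell. Across the limits, 32 members sat at exactly 3 classical UMIs and 56 cells that met all the other conditions sat just outside at 2, so the lower edge of the class is densely filled. At the non-classical limit the same counts were 12 inside and 12 outside, and at the Lyz2 limit 3 and 2. Barcodes shared between libraries numbered 7 for CONV and control, 7 for FLASH and control and 5 for FLASH and CONV, and none was a member.

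The label was checked against genes outside the rule, and 15 members went against it. Tyrobp, an adaptor of myeloid receptors, was used as a marker that monocytes should carry, and Sftpc, the surfactant protein of alveolar type 2 cells, as one that they should lack. In 9 cells (2 control, 5 CONV, 2 FLASH) Sftpc reached 829 to 3677 UMIs, while Tyrobp was at 0 to 2. Type 2 cells also express Lyz2, which was at 58 to 834 UMIs in these 9. A further 3 cells (2 CONV, 1 FLASH) carried S100a9, used here as a neutrophil marker, at 248 to 386 UMIs and no UMI of Ccr2. The last 3 (1 control, 2 CONV) held 173 to 243 UMIs of Cd74, the class II invariant chain, with fewer than 20 of Lyz2. The limits that set them apart were chosen after the values were seen: 100 UMIs of Sftpc, 100 of S100a8 and S100a9 together, or 150 of Cd74 with fewer than 20 of Lyz2.

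The other 124 cells, 18 (control), 47 (CONV) and 59 (FLASH), were past none of the limits that set the 15 apart. The 124 had a median of 14 UMIs of Tyrobp (range 5 to 30), 81 of Lyz2 (23 to 191) and 5 of Sftpc (1 to 22). This does not show that each is a classical monocyte. The cells set apart for S100a8 and S100a9 held 5 to 12 UMIs of Tyrobp, inside the range of the 124. Of the members' UMIs, the 15 cells set apart held 28.3% (control), 25.6% (CONV) and 6.97% (FLASH), so they weigh on any level given relative to total UMIs. Levels below are CPM (a gene's UMIs scaled to a fixed total of UMIs per library) summed over the 139 members unless the 124 are named, and values in the 124 are given where they move a level or a list's calls.

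**Figure D1:**
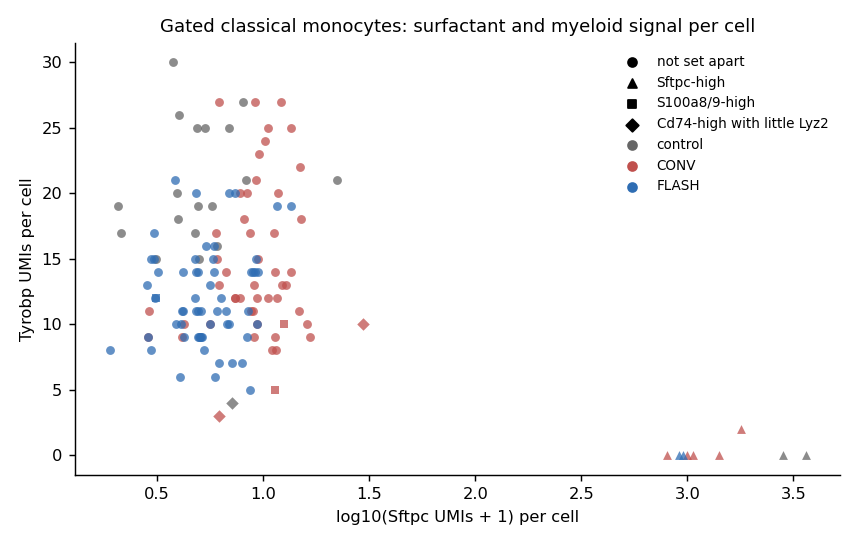
Sftpc UMIs (log10 of UMIs plus 1, x axis) against Tyrobp UMIs (y axis) in each of the 139 members, with colours for the libraries and shapes for the cells set apart. The 9 Sftpc-high cells lie alone at the right with 0 to 2 UMIs of Tyrobp, and the 124 cells not set apart lie at 5 to 30.

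Markers of other cell types were summed over fixed lists. Over the 139, the epithelial list reached 81583 CPM (control), 54196 (CONV) and 24640 (FLASH), and the neutrophil list 611, 18395 and 7609. In the 124 the epithelial sums were 6415, 11314 and 9720, close to the 7118, 11345 and 10650 in the B cells of the same libraries, which should lack these genes. The neutrophil sums in the 124 were 656, 829 and 831. The interstitial macrophage list (14 genes, C1q genes among them) was at 1928, 2865 and 4974 CPM over the 139, with 10, 3 and 6 of its genes at 0 UMIs, and is highest in FLASH. Most of that sum was Apoe: in the 124 the list was at 2624, 3585 and 5317 CPM and Apoe alone at 2480, 3001 and 4879. A C1q UMI was found in 1 of 21, 10 of 56 and 1 of 62 members, so the C1q genes did not follow the order of the list. The part of this list in the differences below was not tested.

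Monocytes made up more of the kept cells in the irradiated libraries, while their share of the Lyz2-high cells was close to that in the control. They were 1.22% (0.754 to 1.85) of the 1728 kept control cells, 2.30% (1.74 to 2.98) of 2434 in CONV and 2.70% (2.08 to 3.45) of 2296 in FLASH. The difference from the control was 1.09 percentage points (0.261 to 1.88) for CONV and 1.49 (0.619 to 2.34) for FLASH. FLASH and CONV differed by 0.400 points (-0.496 to 1.31), an interval that includes 0. The 124 gave 1.04%, 1.93% and 2.57%.

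Depth bears on these shares, since FLASH was the shallowest. With every cell thinned to 1500 UMIs before the rule, and shallower cells left out, the shares of kept cells were 0.926% (16 of 1727), 1.62% (36 of 2217) and 3.23% (49 of 1517). FLASH then exceeded CONV by 1.61 points (0.614 to 2.72), and CONV exceeded the control by 0.697 (-0.0305 to 1.41). In this setting the gap between the irradiated libraries was wider and that between CONV and control included 0. Leaving out shallower cells also lowered the kept cells from 1728, 2434 and 2296 to 1727, 2217 and 1517, so the FLASH denominator fell most. How much of the wider gap comes from depth and how much from this unequal loss was not tested.

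These shares depend on what else the library holds. The gated B cells alone numbered 200 (control), 82 (CONV) and 98 (FLASH), and cells with at least 10 UMIs of Lyz2 numbered 310, 969 and 869. Of the Lyz2-high cells, the members were 6.77% (4.24 to 10.2), 5.78% (4.39 to 7.44) and 7.13% (5.51 to 9.05). CONV lay 0.995 points below the control, written as a difference of -0.995 (-4.60 to 1.84), and FLASH 0.360 above it (-3.33 to 3.35). At 1500 UMIs the shares were 5.63%, 4.17% and 6.81%, with FLASH 2.64 points (0.399 to 5.01) above CONV.

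A parallel rule for non-classical monocytes, asking for at least 3 UMIs of the 6 non-classical genes in place of the 4 classical ones, found 212 cells, 20 of which also held 3 or more classical UMIs. Classical cells were 42.0% (28.2 to 56.8) of the 50 monocytes of both kinds in the control, 35.7% (28.2 to 43.7) of 157 in CONV and 43.1% (34.8 to 51.6) of 144 in FLASH. As deposited, all differences between these shares had intervals that include 0, the widest apart being FLASH and CONV at 7.39 points (-3.61 to 18.2). At 1500 UMIs the shares were 45.7%, 37.1% and 58.3%, and FLASH exceeded CONV by 21.2 points (6.63 to 34.6). Both gates were applied to the thinned cells.

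**Figure D2:**
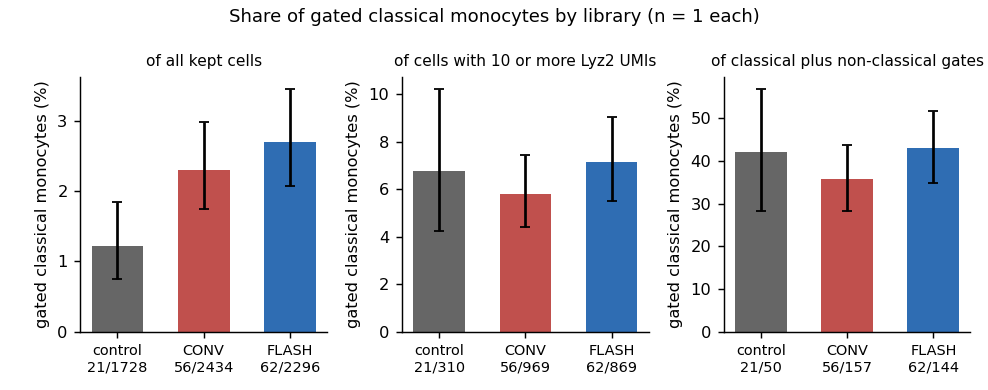
Members as a percentage of kept cells, of Lyz2-high cells and of classical plus non-classical monocytes (bars from 0, 1 per library), with 95% exact binomial intervals. The irradiated bars stand above the control in the first panel (2.30% and 2.70% against 1.22%). There the intervals of control (0.754 to 1.85) and CONV (1.74 to 2.98) overlap slightly. In the other panels all intervals overlap.

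To compare RNA levels, a gene was counted as past the fold when its level plus 1 CPM differed at least 2-fold, among genes with at least 20 UMIs in both libraries' members together. In CONV against control, 130 of 1842 such genes (7.06%) were higher and 72 (3.91%) lower. With a trimmed scaling in place of the total, that split was 167 higher and 40 lower, and the median log2 ratio of all genes moved from 0.00 to 0.13. In FLASH against control, 123 of 1624 (7.57%) were higher and 63 (3.88%) lower. Between the irradiated libraries, 71 of 2042 (3.48%) were higher in FLASH and 107 (5.24%) lower. In the 124, the same shares were 6.00% and 4.28%, 6.18% and 3.82%, and 2.51% and 4.11%. Both irradiated libraries are set against the same control library, so a control value that is high or low by chance enters both ratios.

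Among the transcription factors, Cebpb stood far above the control in both irradiated libraries. It encodes C/EBP-beta, a factor of inflammatory myeloid gene expression. Its UMIs in the members were 10 (control), 587 (CONV) and 380 (FLASH), or 94.0, 3350 and 2670 CPM. That is 35.6-fold (19.2 to 74.7) higher in CONV and 28.4-fold (15.3 to 59.7) higher in FLASH than in the control. FLASH was at 0.797 (0.699 to 0.908) of CONV, and in the 124 at 0.651 (0.570 to 0.743).

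The difference ran through most cells. In the 124 a control cell held 0 to 2 Cebpb UMIs (median 0), a CONV cell 1 to 35 (median 12) and a FLASH cell 0 to 19 (median 6). When each cell was thinned to 1300 UMIs, 1 of 18 control cells (5.56%, 0.141 to 27.3), 39 of 47 CONV cells (83.0%, 69.2 to 92.4) and 45 of 59 FLASH cells (76.3%, 63.4 to 86.4) held at least 2. Unthinned, the cells with at least 2 numbered 1, 46 and 49. Above the whole control range, at 3 or more as deposited, were 44 of 47 CONV cells and 47 of 59 FLASH cells.

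Cebpb was also higher outside the classical cells. Non-classical monocytes were at 389, 5279 and 3946 CPM, 13.6-fold (9.65 to 19.7) and 10.1-fold (7.17 to 14.8) above the control. All kept cells outside the members were at 61.0, 882 and 735 CPM, 14.5-fold (13.1 to 16.0) and 12.1-fold (10.9 to 13.4) above it. In B cells, read here as a measure of free RNA, 1.00% of control, 23.2% of CONV and 22.4% of FLASH cells held a UMI of it, with median depths of 1923.5, 1777 and 1309.5 UMIs per cell. Those shares are below the 9 of 21, 53 of 56 and 57 of 62 members with a UMI, but they too are higher after irradiation.

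KLF2 and KLF4, Krüppel-like factors that restrain activation and support monocyte differentiation respectively, were higher as well. Klf2 was at 339, 896 and 857 CPM, 2.65-fold (1.83 to 3.92) and 2.53-fold (1.73 to 3.78) above the control. Non-classical monocytes were also higher, 1.57-fold (1.28 to 1.95) and 1.42-fold (1.13 to 1.78), while all kept cells outside the members were at 0.959 (0.921 to 0.999) and 1.08 (1.03 to 1.12) of the control. Klf4 was at 197, 400 and 422 CPM, 2.02-fold (1.23 to 3.47) and 2.13-fold (1.28 to 3.69) above the control, in non-classical monocytes 2.43-fold (1.58 to 3.89) and 2.90-fold (1.86 to 4.69), and in all other kept cells 1.75-fold and 1.81-fold.

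The promoters of Cebpb and Klf4 are shown as examples of genes higher in both irradiated libraries whose windows hold the cAMP-response half-site TGACG. Klf2 meets the same description and its window is not shown. The windows run from 250 bases before to 50 after the RefSeq start, on the gene's strand, in build GRCm38.p6, and capitals mark TGACG or its reverse complement. Cebpb (gene at chr2:167688915-167690418, plus strand) is shown at chr2:167688665-167688964, and Klf4 (gene at chr4:55527143-55532466, minus strand) at chr4:55532426-55532725.
Cebpb: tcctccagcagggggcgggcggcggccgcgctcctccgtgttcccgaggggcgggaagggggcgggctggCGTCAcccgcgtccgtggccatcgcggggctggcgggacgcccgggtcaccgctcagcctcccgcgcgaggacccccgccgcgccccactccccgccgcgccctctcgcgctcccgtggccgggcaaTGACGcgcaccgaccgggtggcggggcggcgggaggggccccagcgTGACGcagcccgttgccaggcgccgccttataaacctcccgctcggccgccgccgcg
Klf4: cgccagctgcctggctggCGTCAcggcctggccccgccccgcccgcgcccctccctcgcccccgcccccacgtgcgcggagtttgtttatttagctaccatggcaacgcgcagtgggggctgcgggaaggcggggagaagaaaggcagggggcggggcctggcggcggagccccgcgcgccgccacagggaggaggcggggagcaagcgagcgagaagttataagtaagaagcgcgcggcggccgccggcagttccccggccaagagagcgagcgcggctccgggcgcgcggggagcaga

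Cebpb held 3 such matches, none overlapping another, and also the TATA motif TATAAA, left in lower case. Klf4 held 1 match, as did the window of Klf2. Of 32851 windows of this length, 20.8% held TGACG on either strand and 13.6% TATAAA. The Cebpb window was 80.7% and the Klf4 window 74.3% G or C, against a median of 52.7%. A match is a description of letters and not a measured site. Among the genes higher in both irradiated libraries, only Cebpb, Klf4 and Klf2 were looked up. The share of such genes with a match was therefore not measured.

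Other factors differed less. Spi1 was at 545, 554 and 611 CPM and Irf8 at 169, 240 and 183, within the fold in every comparison. Nr4a1, needed for non-classical monocytes, was at 423, 668 and 555 CPM, also within it. Of 26 listed myeloid factors, 19 were measured in CONV against control, where Cebpb, Klf2, Klf4 and Tcf4 were among those higher past the fold and Ets2 was lower (median log2 ratio 0.50, against 0.00 over all genes). In FLASH against control 18 were measured, with Cebpa, Cebpb, Klf2, Klf4 and Nfil3 among those higher and 0 lower (median 0.48, against 0.05). In the 124 Tcf4 and Nfil3 were no longer past the fold, and the medians were 0.31 and 0.32.

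Several immediate early genes were past the fold. These are transcribed within minutes of a stimulus, tissue dissociation included. Jund, an AP-1 subunit, stood out at 207, 845 and 1040 CPM, 4.08-fold (2.60 to 6.71) and 5.03-fold (3.20 to 8.26) above the control. The control level rests on 22 UMIs. Outside the members Jund was at 551, 845 and 871 CPM, 1.53-fold (1.47 to 1.60) and 1.58-fold (1.51 to 1.65) above the control. The members were thus below the other cells in the control and near them in the irradiated libraries. In CONV against control 5 of 18 measured genes were higher (Fosl2, Jund, Klf2, Klf4 and Dusp2) and Fosb was lower, with a median log2 ratio of 0.08 against 0.00 over all genes. For FLASH 4 of 17 were higher (Fosl2, Jund, Klf2 and Klf4), with a median of 0.39 against 0.05. Over all genes 7.06% and 7.57% were higher past the fold.

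In the 124 the immediate early genes past the fold were Fosl2, Jund, Klf2 and Klf4 in CONV (4 of 16, median 0.28) and Jund, Atf3, Klf2, Klf4 and Klf6 in FLASH (5 of 16, median 0.32). The shares of all genes higher past the fold in the 124 were 6.00% and 6.18%. A summed list of dissociation-response genes was at 3367, 3025 and 3759 CPM over the 139, and in the 124 Atf3 and Hsp90aa1 of it were past the fold in FLASH against control. Of the heat shock genes 0 of 7, 0 of 6 and 0 of 7 passed the fold in the 139, and in the 124 Hsp90aa1 did in FLASH against control. The part of dissociation in these values was not tested.

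**Figure D3:**
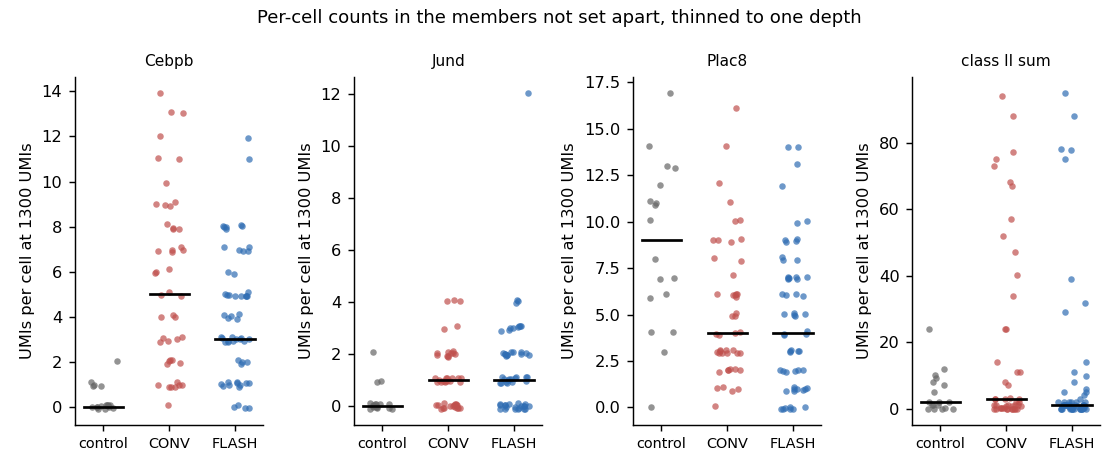
UMIs per cell of Cebpb, Jund, Plac8 and the summed class II genes (H2-Aa, H2-Ab1, H2-Eb1 and Cd74) in the 124 cells not set apart, each thinned to 1300 UMIs (y axis; points are cells, lines are medians). Median Cebpb is 0 (control), 5 (CONV) and 3 (FLASH), and median Plac8 is 9, 4 and 4.

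The 4 genes of the rule and Lyz2 chose the cells, so their levels are given without a comparison. Ly6c2, the Ly6C surface antigen, was at 1928, 1227 and 1384 CPM and was found in 19, 42 and 52 cells. Ccr2 was at 640, 896 and 1110 CPM, in 17, 47 and 56 cells. F13a1 was at 188, 320 and 569 CPM, and Vcan, the matrix proteoglycan versican, at 28.2, 51.4 and 169 CPM from only 3, 9 and 24 UMIs. Lyz2, lysozyme, was at 34825, 26813 and 34672 CPM.

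The wider classical programme was mixed. Of 35 listed genes, 31 were measured in CONV against control, with Klf4, Lyz1, Mmp8 and Itgam higher past the fold (median log2 ratio -0.06). In FLASH against control 5 of 31 were higher, namely Pid1 and those 4, and 0 lower (median 0.40). In FLASH against CONV 1 of 33, Lyz1, was higher, with a median of 0.43 against 0.05 over all genes. The shares of all genes higher past the fold were 7.06%, 7.57% and 3.48% in these comparisons. In the 124 the medians were -0.18, 0.03 and 0.24 (all genes -0.04, -0.05 and -0.02), Pid1 was no longer past the fold in FLASH, nor Lyz1 in CONV. Per cell of the 124 at 1300 UMIs, the summed list had medians of 39, 32 and 35, highest in the control. The direction of this list against the control thus depends on how it is summed.

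Plac8, an abundant gene of Ly6C-high monocytes, was lower in both irradiated libraries. It was at 4589, 3053 and 3281 CPM, 0.665 (0.587 to 0.754) and 0.715 (0.628 to 0.813) of the control. In the 124 it was 0.634 and 0.550 (0.483 to 0.625) of the control, which is short of the fold. Non-classical monocytes held 5142, 3887 and 3215 CPM, also lower in both irradiated libraries.

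Chil3, a chitinase-like protein of recruited monocytes, was at 950, 1358 and 1560 CPM and was found in 9, 39 and 40 cells. In the 124 it was at 1325, 1443 and 1669, closer to each other than in the 139. A single control cell held 38 of the 101 control UMIs of Chil3, and without the 2 highest cells of each library Chil3 was at 371, 1105 and 1387 CPM. S100a4 was at 611, 1016 and 1208 CPM, and the chemokine gene Ccl6 at 1966, 2100 and 3267. Fn1, fibronectin, was at 461, 434 and 611.

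Lyz1, another lysozyme gene, is uncertain. Its 14, 70 and 155 UMIs include 47 in 1 CONV cell and 84 in 1 FLASH cell, both set apart, and it is a near copy of Lyz2, from which reads can be misassigned. In the 124 it held 8, 21 and 71 UMIs, and FLASH was 3.33-fold (2.02 to 5.70) above CONV.

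Adhesion and trafficking genes were partly higher. Itgam, the CD11b integrin chain, was at 47.0, 126 and 190 CPM, 2.67-fold (0.987 to 9.03) and 4.03-fold (1.53 to 13.4) above the control. Itgb2, its partner chain, was at 132, 297 and 281 CPM, 2.25-fold (1.23 to 4.40) and 2.13-fold (1.14 to 4.25) above it. Outside the members Itgb2 was at 83.3, 99.5 and 117 CPM.

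Of 22 trafficking genes, 13 were measured in CONV against control, with Ccrl2, Itgb2 and Itgam higher. In FLASH against control 4 of 12 were higher (Ccr1, Ccrl2, Itgb2 and Itgam) and Itgb7 lower. Of all genes, 7.06% (CONV) and 7.57% (FLASH) were higher past the fold and 3.91% and 3.88% lower. Ccrl2, an atypical chemokine receptor, held only 3, 26 and 24 UMIs, of which 15 in CONV lay in 1 cell. Ccr1, a receptor for CCL3 and CCL5, held 3, 10 and 19. Cx3cr1, the fractalkine receptor typical of the non-classical kind, was at 65.8, 108 and 63.2 CPM.

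Signals that monocytes send were higher for a few genes. Tgfb1, the precursor of the fibrogenic cytokine TGF-beta, held 17, 101 and 66 UMIs, or 160, 576 and 464 CPM. CONV was 3.61-fold (2.14 to 6.43) and FLASH 2.90-fold (1.68 to 5.27) above the control, and in the 124 FLASH was at 0.649 (0.469 to 0.895) of CONV. Metrnl, a secreted cytokine, held 8, 68 and 55 UMIs and was 5.16-fold (2.47 to 12.4) and 5.14-fold (2.43 to 12.5) above the control. Both were also higher in non-classical monocytes, where Tgfb1 was at 275, 745 and 627 CPM and Metrnl at 218, 737 and 673. All kept cells outside the members were higher as well. There Tgfb1 was 2.15-fold (1.92 to 2.41) and 1.92-fold (1.70 to 2.16) above the control, and Metrnl 4.65-fold (3.85 to 5.65) and 4.88-fold (4.02 to 5.97). The difference was thus not particular to monocytes.

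Il1b, the cytokine interleukin-1 beta, was at 1194, 1575 and 2199 CPM, highest in FLASH. It was 1.32-fold (1.07 to 1.64) and 1.84-fold (1.49 to 2.28) above the control, under the fold in both. In the 124 Il1b was at 1653, 2011 and 2349 CPM, in the same order but closer to the control. Non-classical monocytes showed the opposite order, with Il1b at 1683, 1614 and 1274 CPM. Thbs1, thrombospondin 1, which can release latent TGF-beta, was at 997, 576 and 780 CPM. In the 124 Thbs1 was 0.585 of the control in CONV and 0.622 (0.469 to 0.826) in FLASH. Over the 139 without each library's 2 highest cells, Thbs1 was at 657, 491 and 719 CPM, with FLASH above the control.

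Osm and Cd83 were lower in the summed levels. Osm, the cytokine oncostatin M, was at 339, 166 and 190 CPM, 0.489 (0.289 to 0.820) and 0.560 (0.327 to 0.949) of the control, and in the 124 past the fold in FLASH too (472 CPM in the control, 196 in FLASH). Cd83, a co-stimulatory surface protein, was at 348, 160 and 148 CPM, 0.459 (0.271 to 0.771) and 0.424 (0.236 to 0.744) of it. Without each library's 2 highest cells Osm was at 223, 124 and 146 CPM and Cd83 at 171, 110 and 87.1, lower than the control but under the fold for both genes in both libraries. Cd83 was lower too in non-classical monocytes (447, 237 and 278 CPM) and in B cells (728, 314 and 387). Of 25 listed NF-kB genes, 13 were measured in CONV against control, with Tnfaip2 higher and Cd83 lower (median log2 ratio -0.02). In FLASH against control 12 were, with Nfkbiz and Tnfaip2 higher and Cd83 lower (median 0.45). Of all genes, 7.06% (CONV) and 7.57% (FLASH) were higher past the fold and 3.91% and 3.88% lower. In the 124 Tnfaip2 in CONV and Nfkbiz in FLASH were no longer past the fold.

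Mt1, Cxcl2 and Ccl2 were higher in FLASH than in CONV, each in more than 10 FLASH cells. Mt1, the metal-binding metallothionein 1, held 6, 22 and 123 UMIs, or 56.4, 126 and 864 CPM. FLASH was 6.88-fold (4.35 to 11.4) above CONV and 15.3-fold (6.84 to 42.5) above the control, with a UMI in 3, 16 and 29 cells and at most 22 in 1 FLASH cell. In the 124 it held 1, 11 and 118 UMIs and FLASH was 10.6-fold (5.69 to 21.7) above CONV. Mt2 held 0, 4 and 16 UMIs.

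Cxcl2, a neutrophil-attracting chemokine, held 3, 17 and 67 UMIs, the last in 13 FLASH cells with 29 in 1 of them. FLASH was at 471 CPM and CONV at 97.0, a ratio of 4.85 (2.82 to 8.81), and without that cell FLASH was at 272. Without each library's 2 highest cells the levels were 10.3, 41.2 and 211 CPM. Ccl2, the ligand of CCR2, held 4, 6 and 27 UMIs in 4, 4 and 18 cells, with FLASH 5.54-fold (2.24 to 16.4) above CONV. With cells thinned to 1500 UMIs before the rule, the log2 ratio of Ccl2 in FLASH to the control was -0.90. Of 26 inflammatory genes, 6 were measured in FLASH against CONV, and Cxcl2, Ccl2, Ccl5 and Areg were higher past the fold. The share of all genes higher in this comparison was 3.48%. For Ccl5 54 of 63 FLASH UMIs lay in 1 cell, and for the growth factor Areg 10 of 15.

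These genes are abundant in interstitial macrophages. Gated by at least 8 C1q UMIs, those cells held 1686, 3520 and 4909 CPM of Mt1, 4266, 6042 and 6453 of Cxcl2 and 2126, 3285 and 2717 of Ccl2. In B cells Mt1 was at 34.1, 51.3 and 133 CPM and Cxcl2 at 14.9, 17.1 and 30.2. Apoe, the lipid carrier of macrophages, followed the same order in the members with 1824, 2403 and 4567 CPM, FLASH being 1.90-fold (1.68 to 2.15) above CONV. In interstitial macrophages Apoe was at 26314, 15523 and 24024. The part of such macrophages, or of their RNA, in the members' values was not tested.

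Genes of macrophage maturation were partly higher. Ctsd, the lysosomal protease cathepsin D, was at 56.4, 188 and 246 CPM, 3.34-fold (1.38 to 9.75) and 4.36-fold (1.81 to 12.7) above the control. Of 29 listed genes, 16 were measured in CONV against control, with Ctsd and Fabp5 among those higher and 0 lower. Fabp5 came from the cells set apart: in the 124 it held 5, 3 and 7 UMIs, and with a classical sum of at least 2 in the rule its log2 ratio was -0.17. In the 124 Lgmn was lower past the fold in CONV. In FLASH against control 16 were measured, with Apoe and Ctsd among those higher and Cd63 lower, though in the 124 Apoe was just under the fold, at 2480 CPM in the control and 4879 in FLASH. Csf1r, the receptor for the growth factor CSF1 that macrophages need, was at 254, 205 and 323 CPM, within the fold.

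Antigen presentation by class II molecules depended on which cells were counted. Summed over the list, class II genes stood at 10100, 16962 and 8824 CPM in the 139 and at 3726, 16580 and 9093 in the 124. Of the control, the 124 leave out 1 Cd74-high cell with little Lyz2 and 2 Sftpc-high cells. In the 139, 0 of 6 measured genes passed the fold in CONV or in FLASH against control. In the 124, 5 of 6 were higher in CONV and 4 of 6 in FLASH, against 6.00% and 6.18% of all genes. Since one of the limits that made the 124 is on Cd74 itself, the 124 give no independent comparison of these genes.

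A smaller set, H2-Aa, H2-Ab1, H2-Eb1 and Cd74, was summed with the 3 Cd74-high cells counted and only the Sftpc-high and S100a8-high cells left out. It reached 8621, 18719 and 8293 CPM, which cannot be set beside the sums of the list of 12 genes above. CONV was then 2.17-fold (2.00 to 2.36) above the control, and FLASH was at 0.962 (0.874 to 1.06) of the control and 0.443 (0.413 to 0.475) of CONV. Whether FLASH stood above the control thus rests on 1 control cell, which held 243 UMIs of Cd74, while FLASH was below CONV in each set of cells.

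In the 124, Cd74 was at 2480, 9795 and 5249 CPM, 3.95-fold (3.39 to 4.63) and 2.12-fold (1.80 to 2.50) above the control. With the Cd74-high cells counted it was at 5268, 11407 and 5249, or 2.17-fold (1.95 to 2.41) and 0.996 (0.882 to 1.13). In the 124 FLASH was at 0.536 (0.488 to 0.588) of CONV. H2-Aa, a class II alpha chain, was 9.77-fold (6.00 to 17.0) and 4.91-fold (2.96 to 8.66) above the control, from 223, 2180 and 1095 CPM, but 2.35-fold and 0.987 (0.754 to 1.30) with those cells counted. H2-Ab1, its beta chain, was at 289, 2287 and 1299 CPM in the 124 and at 1463, 3147 and 1299 with them. Other gates had their highest Cd74 in the control: 9196, 8200 and 4334 CPM in non-classical monocytes, 39787, 10442 and 12236 in interstitial macrophages and 26353, 17828 and 18493 in B cells.

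In the irradiated libraries most class II RNA sat in a minority of cells. Thinned to 1300 UMIs, a cell of the 124 held a median of 2, 3 and 1 UMIs of H2-Aa, H2-Ab1, H2-Eb1 and Cd74 together, and at most 24, 94 and 95. With a limit of 10, chosen after the values were seen, class II-high cells were 3 of 18 in the control (16.7%, 3.58 to 41.4), 17 of 47 in CONV (36.2%, 22.7 to 51.5) and 11 of 59 in FLASH (18.6%, 9.69 to 30.9). FLASH lay below CONV, with a difference of -17.5 points (-33.9 to -0.596), and CONV exceeded the control by 19.5 points (-6.14 to 37.4). With the Cd74-high cells counted they were 4 of 19, 19 of 49 and 11 of 59, and FLASH differed from CONV by -20.1 points (-36.2 to -3.10). Unthinned, the cells at 10 or more numbered 7, 21 and 13. Cells near the limit, at 7 to 12 UMIs, numbered 5, 4 and 3. In the 124, the class II-high cells held 92 UMIs of Cd74 in the control against 97 in the class II-low cells. In CONV these were 1196 against 80, and in FLASH 616 against 79.

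These cells also differed in other genes. Over CONV and FLASH together there were 28 class II-high and 78 class II-low cells. In the class II-high cells Chil3 was at 653 CPM against 1909, a ratio of 0.342 (0.248 to 0.463), and Hp, haptoglobin, at 354 against 1010, a ratio of 0.350 (0.223 to 0.529). The chemokine gene Ccl6 had a ratio of 0.671 (0.564 to 0.795), and Plac8 one of 1.04 (0.904 to 1.20). The rule genes Ly6c2, F13a1 and Ccr2 had ratios of 0.559, 0.492 and 1.02, which the rule ties to each other, since a cell low in some of them had to carry the others.

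Il1b was the other way, at 2855 CPM in class II-high cells and 1919 in class II-low, a ratio of 1.49 (1.25 to 1.77). Tgfb1 was at 870 against 539 CPM, or 1.61 (1.16 to 2.23), with 1.59 (1.05 to 2.40) within CONV and 1.30 (0.680 to 2.35) within FLASH. Cx3cr1 was at 204 against 68.7, or 2.97 (1.32 to 6.78). Cebpb was lower in the class II-high cells, at 0.798 (0.666 to 0.953) within CONV and 0.628 (0.453 to 0.855) within FLASH. Within single libraries, the Chil3 ratio was 0.253 (0.159 to 0.387) in CONV and 0.514 (0.318 to 0.794) in FLASH, and that of Il1b 1.53 (1.19 to 1.96) and 1.64 (1.26 to 2.11). The Cx3cr1 ratio was 3.58 (1.27 to 11.5) in CONV and 1.26 (0.128 to 6.64) in FLASH, where it rests on 2 UMIs. Cells of 1 library are not replicates, so these ratios describe the cells that were caught.

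**Figure D4:**
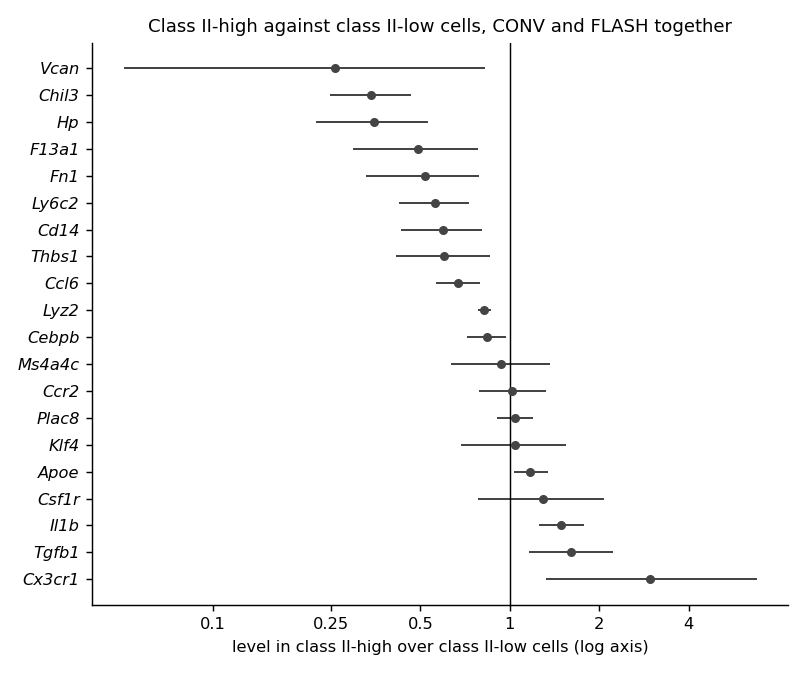
CPM of single genes (y axis) in class II-high cells over class II-low cells of the CONV and FLASH libraries together (x axis, log scale; points are ratios, bars 95% counting intervals), among the members not set apart. Chil3 (0.342) and Hp (0.350) lie below 1, Plac8 (1.04) near 1, and Il1b (1.49) above it.

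Class I genes, which all nucleated cells use to present peptides, were within the fold. Of the 9 measured class I genes, 0 passed the fold in any of the 3 comparisons, with median log2 ratios of -0.07, -0.01 and -0.01. B2m, the class I light chain, was at 3329, 3105 and 3316 CPM. In the 124 it was lower in the irradiated libraries, at 4316, 3869 and 3527 CPM, as was H2-D1 at 3345, 2756 and 2228. H2-K1 was at 643, 752 and 574 there, higher in CONV. The class I list summed to 9918, 8920 and 7938 CPM in the 124, with per-cell medians at 1300 UMIs of 14, 11 and 10. Of the interferon-stimulated genes 0 of 13 were past the fold in CONV and 1 of 13 (Slfn1) in FLASH against control, and Slfn1 was not in the 124. Summed per cell of the 124 at 1300 UMIs, the list was nonetheless lower in the irradiated libraries, with medians of 23.5, 15 and 17. Its summed level in the 124 was 16596, 13418 and 12937 CPM, and in non-classical monocytes 14349, 10120 and 10285. Ly6e, one of them, was lower at 2182, 1587 and 1335 CPM, 0.727 (0.609 to 0.869) and 0.612 (0.502 to 0.744) of the control, and in other cells as well (1400, 711 and 745 CPM).

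The measured targets of p53, a transcription factor activated by DNA damage, were not past the fold in these cells. Of 30 listed targets, 4 were measured in CONV against control and 5 in FLASH against control, and 0 passed the fold. Cdkn1a, the cell cycle inhibitor p21, was at 536, 485 and 471 CPM, 0.905 (0.639 to 1.29) and 0.878 (0.608 to 1.27) of the control. In the 124 these ratios were 0.745 and 0.670 (0.460 to 0.979). In all kept cells outside the members it was at 142, 590 and 634 CPM, 4.15-fold (3.87 to 4.45) and 4.46-fold (4.15 to 4.79) above the control. The intervals of the members and of the other cells do not overlap, and the members' control level exceeded that of the other control cells.

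In non-classical monocytes Cdkn1a was at 275, 400 and 466 CPM, 1.45-fold (0.925 to 2.37) and 1.69-fold (1.05 to 2.81) above the control. Bax, the pro-death target, was at 197, 245 and 232 CPM in the members, at 0.853 (0.539 to 1.39) and 0.983 (0.600 to 1.64) of the control in non-classical monocytes, and 1.68-fold (1.56 to 1.82) and 1.80-fold (1.66 to 1.96) above it in all other kept cells. Btg2, an anti-proliferative target, was at 0.927 and 0.974 of the control in the members, 0.722 and 0.865 in non-classical monocytes and 0.995 and 1.04 in the other cells. A level near the control was thus not particular to the members, nor were all targets higher outside them. Phlda3, an inhibitor of AKT, held 0, 9 and 7 UMIs in the members, too few to compare, and was 4.37-fold (3.86 to 4.97) above the control in the other CONV cells. The other cells are of many types whose shares differ between libraries, which moves their summed level too.

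**Figure D5:**
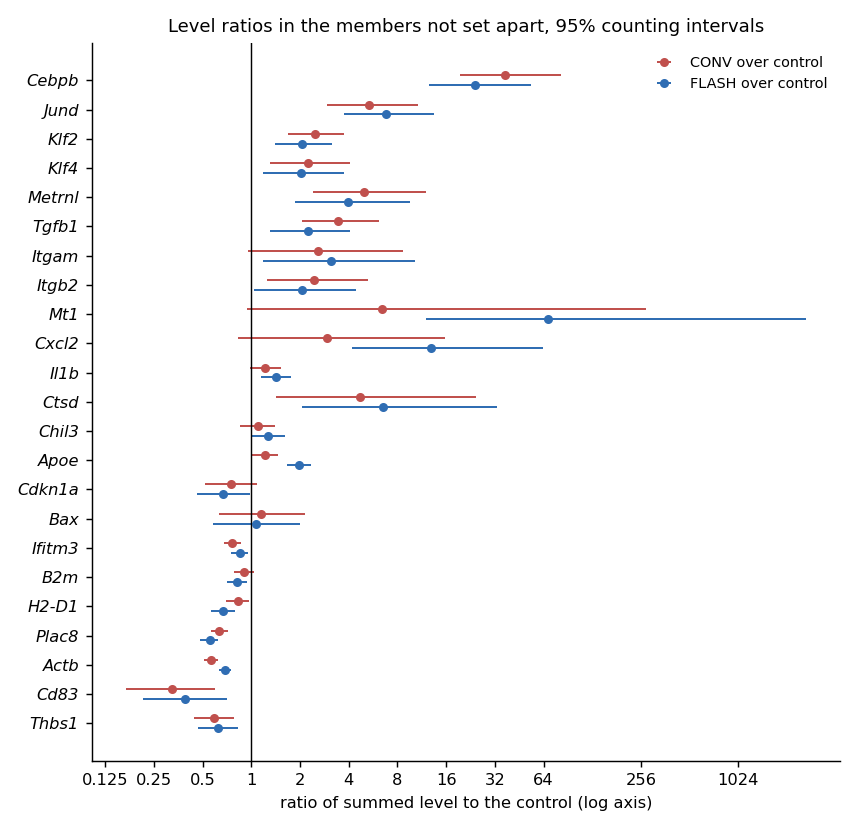
Ratio of CPM in CONV and in FLASH to the control (x axis, log scale, 1 line per gene and colour per library) for single genes in the 124 members not set apart, with 95% counting intervals. Cebpb stands at 37.1 in CONV and 24.2 in FLASH, Mt1 in FLASH farther right but with a wide interval from 1 control UMI, and Plac8 below 1 at 0.634 and 0.550.

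Cell division was seen in single cells only. Summed over 12 mitotic genes, the control members held 52 UMIs, 50 of them in 1 cell of 11190 UMIs. CONV held 23, of which 22 lay in a cell set apart for S100a8 and S100a9, and FLASH held 2. Tuba1b, a tubulin, was at 414, 114 and 98.4 CPM, and the control without that cell was at 116. Hmgb2, a chromatin protein, had 70 of its 108 control UMIs in 1 cell, and the control without it was at 399 CPM.

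Housekeeping levels were not all equal. Actb, beta-actin, was at 11944, 6837 and 7602 CPM, 0.572 (0.529 to 0.620) and 0.636 (0.586 to 0.691) of the control. Yet 385 and 366 of its 1270 control UMIs lay in 2 cells. Without each library's 2 highest cells Actb was at 5808, 4968 and 6803 CPM, so FLASH was then above the control. Outside the members Actb was at 6600, 4943 and 5109. Ubb, a ubiquitin gene, was at 2643, 1296 and 1714 CPM, and outside at 3012, 2019 and 2112. Of 8 measured glycolysis genes 0 passed the fold in each comparison, and so did 0 of 12 mitochondrial genes, whose medians were -0.14, -0.38 and -0.24.

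Several names at the far ends of the ranking belong to 1 cell or to the cells set apart. Retnla, a resistin-like protein, had 55 of 56 FLASH UMIs in 1 cell, and FLASH without it was at 7.17 CPM. Glycam1, an endothelial mucin, had all 94 CONV UMIs in 1 cell, Ccl21a 76 of 78 and Clu 21 of 24. The granule genes Ngp, Camp and Lcn2 were past the fold only through the S100a8-high and S100a9-high cells, since 0 of them were measured in the 124.

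Against non-classical monocytes of the same library, the 124 differed in genes that the rule did not name. The gates were made with other genes, but cells chosen for one kind differ in linked genes, so the values are a description. Fn1 was at 643 against 22.9 CPM in the control, 568 against 81.5 in CONV and 657 against 90.6 in FLASH. Chil3 was at 1325 against 115, 1443 against 496 and 1669 against 252. S100a6, a calcium-binding protein of motile cells, was at 2099 against 962, 2441 against 1617 and 2613 against 1404.

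Other genes were lower in the classical kind. Klf2 was at 433 against 1260 CPM, 1075 against 1978 and 891 against 1785. Nr4a1 was at 538 against 1317, 852 against 1245 and 551 against 1320. Cx3cr1 was at 91.8 against 240, 146 against 264 and 68.0 against 246. For these genes the interval of the ratio lay on the same side of 1 in 3 of 3 libraries, though its size differed. The ratio of Chil3 was 11.6 (6.04 to 24.9) in the control and 2.91 (2.31 to 3.67) in CONV. For Jund even the side differed, with a ratio of 0.335 (0.160 to 0.650) in the control and 1.35 (1.05 to 1.73) in FLASH. In CONV the interval of Jund included 1, at 1.24 (0.966 to 1.58). The ratio of Cd74 was 0.270 (0.229 to 0.316) in the control and 1.19 (1.11 to 1.28) in CONV. The classical cells, unlike the non-classical ones, were limited on Cd74 itself, so these ratios give no independent comparison of Cd74. With the Cd74-high cells counted, Cd74 was at 5268 against 9196 CPM in the control and 11407 against 8200 in CONV.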

How the data were processed

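Per the submitters' processing notes, the deposited values are counts of UMIs per gene and barcode, produced by the authors' run of Cell Ranger 2.0 (build mm10). The 3 matrices hold 27998 genes, and library totals were 7114360 (control), 7463259 (CONV) and 5498902 (FLASH) UMIs. From them, member counts were summed per library and divided by the members' total to give CPM. Intervals were exact for ratios (conditional binomial) and for shares (Clopper-Pearson), and approximate for differences of shares (Newcombe). UMIs of few cells are not independent, so they cover counting error only. Ratios past the fold used a pseudocount of 1 CPM. The interval and ratio steps were tested on simulated data.

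The members and lists were chosen with earlier results of these data known. Named genes were the rule genes, the 6 highest and 6 lowest per comparison by the bound nearest to 1, up to 4 per list by UMIs and up to 3 by interval, and 8 monocyte genes fixed by name. Others were chosen after their values were seen. Some results are not reported here. Doublets were left in, and Scrublet in scanpy 1.11.5 was an alternative. Gene positions come from GENCODE M21 and promoter windows from RefSeq. Python 3.11.15, numpy 2.4.6, scipy 1.17.1, pandas 2.3.3 and matplotlib 3.10.9 were used.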

Additional observations from a re-analysis of the deposited data

Results flagged for a closer look

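In 5 cases a gene lay on opposite sides of the control in classical monocytes and in a neighbouring gate, with 1 library per group, and none of these differences was tested. Tuba1b in CONV was 0.276 of the control in classical cells, where 33 of the 44 control UMIs lay in 1 dividing cell, and 2.88-fold (1.03 to 11.2) higher in non-classical monocytes. Cxcl15, an epithelial chemokine, was 0.495 of the control in CONV and 0.164 in FLASH among the 139 members, where the Sftpc-high cells carry it. In non-classical monocytes its control value was 0 UMIs, and taking 3 UMIs as the limit for that group Cxcl15 was at least 3.50-fold higher in CONV and at least 5.08-fold higher in FLASH. Retnla was at least 13.9-fold higher in FLASH than in the control members, with 55 of 56 UMIs in 1 cell, and 0.121 (0.0948 to 0.154) of the control in interstitial macrophages. Lyz1 was 3.03-fold (1.69 to 5.83) higher in CONV members, with 47 of 70 UMIs in 1 cell set apart, and 0.150 (0.0929 to 0.238) of the control in interstitial macrophages. The cause of these differences was not tested.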

How the results depend on the processing

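Counts of cells limit these results, as does the single library per group. The 21 control members weigh on the width of each ratio to the control. Shares of cells stayed within their interval in 76 of 90 alternatives. Log2 ratios of named genes stayed within theirs, or within a small fixed margin, in 4202 of 4742. With at least 500 genes, a mitochondrial limit of 20% or a C1q sum under 4, the members stayed at 21, 56 and 62. In these settings the members' levels could not move, so such cases measure no robustness of levels. No paired analysis was possible because each group has 1 library, and for the same reason no library could be left out. The members were 29, 85 and 81 with a classical sum of at least 2, 15, 32 and 39 with at least 5, and 16, 36 and 49 after thinning to 1500 UMIs. Other limits on genes, mitochondrial share, Lyz2 and C1q, and Scrublet, left 19 to 22, 53 to 56 and 61 to 63.

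With a sum of at least 2, members were 3.49% (CONV) and 3.53% (FLASH) of kept cells, 8.77% and 9.32% of Lyz2-high cells, and 45.7% of CONV monocytes. Genes past the fold were 223 higher in CONV and 248 higher and 142 lower in FLASH against control, and 148 higher and 183 lower in FLASH against CONV. With at least 5, the shares were 1.31% and 1.70%, 3.30% and 4.49%, and 24.1% and 32.2%, and the counts 77 and 64 higher against control and 70 lower in FLASH against CONV. Thinned to 1500 UMIs, the shares of kept cells were 1.62% in CONV and 3.23% in FLASH, of Lyz2-high cells 4.17% in CONV and 6.81% in FLASH, and of gated monocytes 37.1% in CONV and 58.3% in FLASH, and the counts 39 higher and 30 lower (CONV against control), 63 and 35 (FLASH against control) and 25 and 31 (FLASH against CONV). Without the cells set apart, an alternative chosen after seeing the data, 44 were higher in FLASH against CONV. Trimmed scaling gave 40 lower in CONV. At least 50 UMIs gave 27 and 12, 29 and 16, and 10 and 24. At least 1 UMI gave 3317 and 2080, 2822 and 2387, and 2139 and 3054. A pseudocount of 20 CPM gave 38 lower in CONV, and 40 higher and 63 lower in FLASH against CONV. Other rules and UMI limits change the number of cells and genes tested by construction, and for the other settings the cause was not tested.

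The sign differed for 14 log2 ratios. With mitochondrial UMIs at most 5%, Cxcl15 was 5.16 (CONV) and 3.79 (FLASH) and Rgcc 0.19 (FLASH) against control. With a sum of at least 2, Lyz1 was -0.03 and Fabp5 -0.17 (CONV) and Lcn2 -1.19 (FLASH), and with at least 5 Cxcl15 was 4.40 (CONV). With Lyz2 at least 5, Mt1 in CONV was -0.18. Thinned to 1500, Lyz1 in FLASH against CONV was -0.16 and Ccl2 in FLASH against control -0.90. Rgcc was 0.08 without the cells set apart and 0.25 without the 3 deepest members (FLASH), where Tuba1b was 0.72 and Cxcl15 9.65 (CONV). The cause was not tested.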
